A study of Mus musculus with 4 samples.

Results

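The genes described here are 32 genes of the B cell surface and of signalling from the B cell antigen receptor, taken by gene symbol from a table of 38087 genes. All 32 were present once in the table, and all 32 had enough reads to be tested. They were read in 4 RNA libraries of C57BL/6 mice at postnatal week 20. The 2 libraries of mice labelled Becn1-M-KO, a myeloid-specific knockout of the autophagy gene Becn1, came from cervical tissue that the series describes as B cell lymphoma. The 2 libraries labelled WT came from cervical lymph nodes of wild type mice. The tissue label reads cervical lymph node for all 4 samples, and tumour and genotype cannot be told apart. The promoter that drives deletion in myeloid cells is not named in the labels. The labels do not state separate animals within a group; p-values therefore speak of the spread between these 4 libraries alone, part or all of which may be technical.

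The B cell antigen receptor is a membrane immunoglobulin paired with the signalling chains CD79A and CD79B. Antigen binding lets the kinases LYN and BLK phosphorylate these chains, which then recruit SYK. SYK and BTK, with the adaptor BLNK, activate the phospholipase PLCG2, while PI3 kinase is recruited through adaptors such as PIK3AP1. Protein kinase C beta then acts through BCL10 and MALT1 to activate NF-kB. Surface proteins such as CD22, CD72 and SIGLECG dampen the signal, and CR2, CD40 and CD180 add signals from complement, T cells and microbial products. In a lymph node these genes are known chiefly from B cells of the follicles, but many of the kinases and adaptors also act in macrophages and other myeloid cells.

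The 4 libraries held 15604247 to 20067004 reads. Levels are given in CPM, read counts scaled to library size with TMM factors, except where the plain library total is named as the base. Becn1 had 49.5 and 53.3 CPM in Becn1-M-KO replicates 1 and 2, against 54.8 and 63.4 CPM in WT replicates 1 and 2. In bulk tissue this level does not check a deletion made only in myeloid cells. WT replicate 1 stood apart from the other libraries before any comparison: 15 salivary gland and epithelial markers made up 48.0% of its reads, and its 11 T cell markers summed to 6.81 CPM of the library total. The same gland markers took 0.0139% and 0.437% of reads in the Becn1-M-KO libraries and 18.4% in WT replicate 2, so neither WT library was free of gland RNA. The T cell markers summed to 715 and 697 CPM of the library total in Becn1-M-KO, against 848 CPM in WT replicate 2. T cell markers were thus near 0 in WT replicate 1, which goes against its tissue label. B lineage markers were low there but not all near 0, with 355 reads of Bach2, 260 of Ighm and 128 of Ebf1. Xist, the RNA that coats the silenced female X, had 3 and 34 reads in Becn1-M-KO libraries, against 2088 and 5314 reads in WT libraries, so sex went with genotype. Each comparison below is given against both WT libraries together and against each of them alone.

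The summed level of the 32 genes was 5279 and 5189 CPM in Becn1-M-KO replicates 1 and 2, against 403 CPM in WT replicate 1 and 3463 CPM in WT replicate 2. With the library total as the base, the sums were 6726 and 6711 CPM in Becn1-M-KO, against 207 CPM in WT replicate 1 and 4061 CPM in WT replicate 2, so the gap to WT replicate 1 is wider on that base. The lymphoma libraries were close to each other, and both were above both WT libraries. Single genes had between 533 and 9910 reads in Becn1-M-KO replicate 1 and between 783 and 12402 reads in Becn1-M-KO replicate 2. They had between 1 and 490 reads in WT replicate 1, and between 495 and 6100 reads in WT replicate 2. Markers of the B lineage outside the 32 summed to 9674 and 8871 CPM in Becn1-M-KO, against 98.4 CPM in WT replicate 1 and 2041 CPM in WT replicate 2. Most of this sum was the immunoglobulin gene Ighm. Without Ighm, left out after the values were seen, they summed to 997 and 965 CPM in Becn1-M-KO, against 67.0 CPM in WT replicate 1 and 831 CPM in WT replicate 2. Over all these markers 4 of 9 rows were called higher than WT replicate 2 and 5 lower, with a median log2 fold change of −0.84. All 32 genes had their lowest level in WT replicate 1. Between the 2 Becn1-M-KO libraries the genes differed little, by a median of 0.07 on the log2 scale and by at most 0.17, for Dapp1. In bulk samples, fewer cells of a type and less RNA per cell cannot be told apart.

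**Figure D1:**
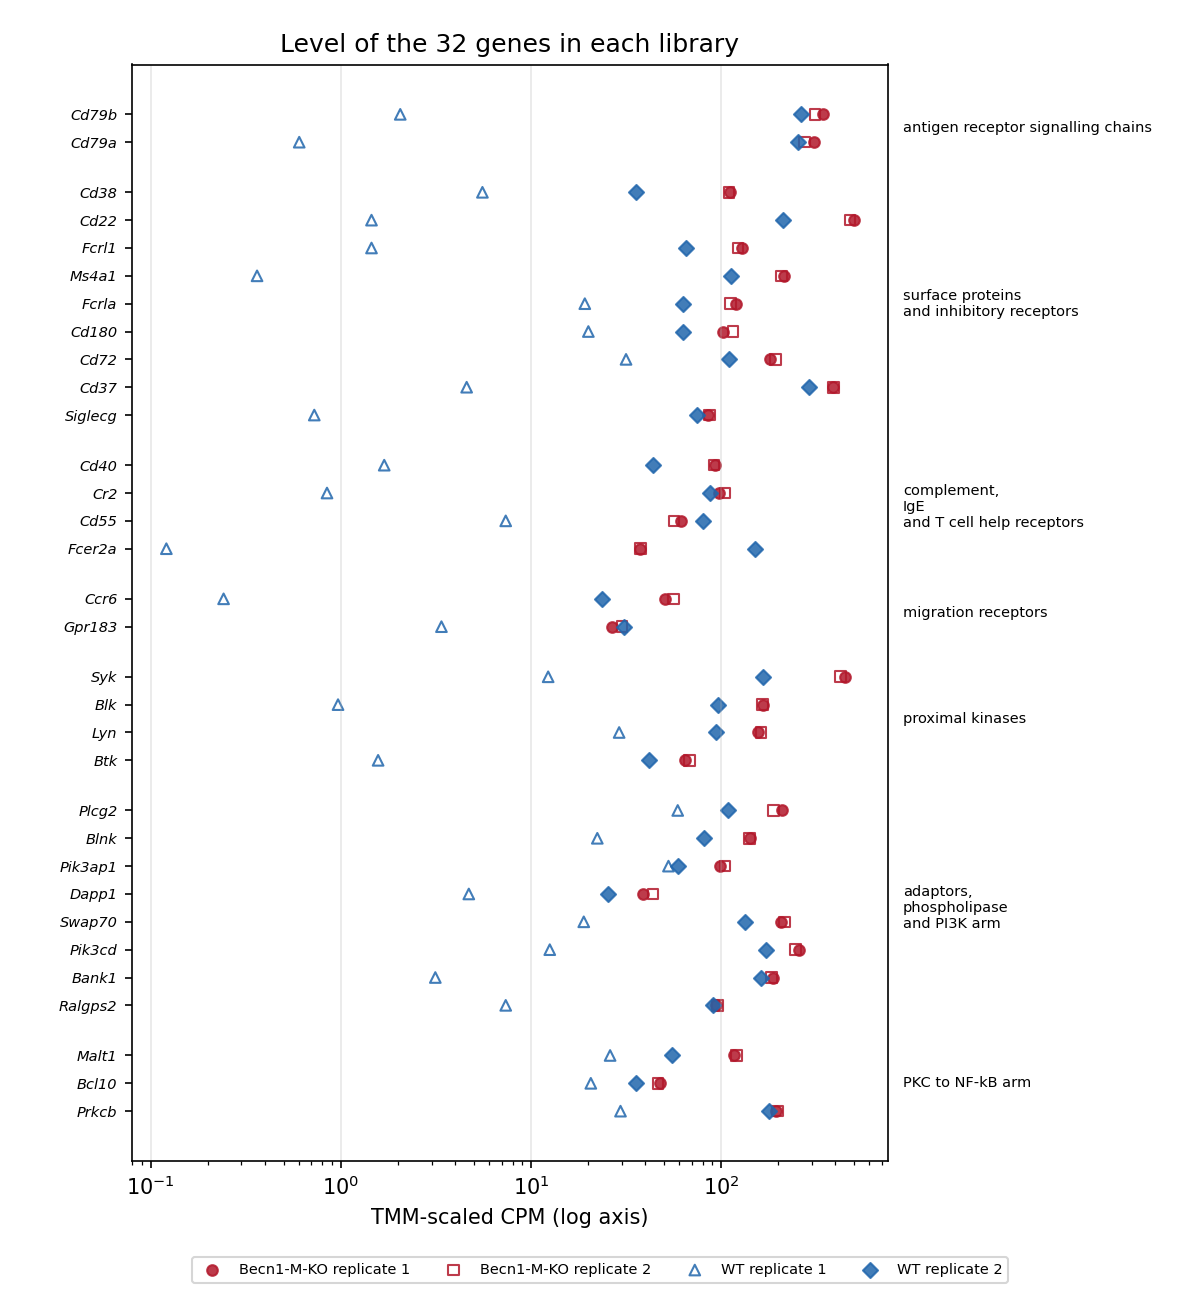
Level of each of the 32 genes in each library, in CPM on a log axis, with Becn1-M-KO libraries in red and WT libraries in blue. The Becn1-M-KO pairs nearly coincide, WT replicate 1 lies lowest for every gene, and Fcer2a is the gene with WT replicate 2 farthest above the lymphomas.

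Promoter windows are printed for 3 genes whose level against WT replicate 2 is described below and whose window holds a searched motif: Cd22 and Ccr6, which were higher in the lymphomas, and Fcer2a, which was lower. They were chosen for holding a motif, so they do not stand for the other genes. The windows are RefSeq sequences of GRCm38.p6 from 250 bases before to 50 bases after a transcript start, written 5′ to 3′ on the gene's strand. Capitals mark matches, on either strand, to the octamer ATGCAAAT bound by POU factors, to the EBF core (TCCC and GGGA with 2 bases between), to the STAT motif TTCNNNGAA, and to its form with 4 bases between TTC and GAA, called the longer STAT motif here. The STAT motifs and the EBF core read alike on both strands, and no marked matches overlap. In Cd22 the capitals are the EBF core, in Ccr6 they are 2 matches of TTCNNNGAA followed by the octamer on the opposite strand, and in Fcer2a they are the longer STAT motif.
Cd22, chr7:30878979-30879278, minus strand: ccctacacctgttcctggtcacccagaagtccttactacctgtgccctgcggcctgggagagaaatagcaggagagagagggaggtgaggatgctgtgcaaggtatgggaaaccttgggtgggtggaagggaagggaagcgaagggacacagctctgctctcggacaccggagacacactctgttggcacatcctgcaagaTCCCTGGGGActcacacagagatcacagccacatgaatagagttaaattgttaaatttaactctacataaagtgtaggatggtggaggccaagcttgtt
Ccr6, chr17:8235793-8236092, plus strand: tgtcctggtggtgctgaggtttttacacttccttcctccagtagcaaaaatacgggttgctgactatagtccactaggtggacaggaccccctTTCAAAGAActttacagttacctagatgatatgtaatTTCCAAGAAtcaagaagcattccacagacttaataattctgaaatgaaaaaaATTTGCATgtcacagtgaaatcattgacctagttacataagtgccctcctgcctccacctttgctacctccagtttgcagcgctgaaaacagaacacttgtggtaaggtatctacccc
Fcer2a, chr8:3690812-3691111, minus strand: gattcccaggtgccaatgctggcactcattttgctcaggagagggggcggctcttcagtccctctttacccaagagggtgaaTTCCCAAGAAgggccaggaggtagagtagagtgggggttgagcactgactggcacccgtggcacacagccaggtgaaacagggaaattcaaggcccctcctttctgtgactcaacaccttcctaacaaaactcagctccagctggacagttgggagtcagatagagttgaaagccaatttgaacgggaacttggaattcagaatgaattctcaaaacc

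The transcript start of the Cd22 window lies 1314 bases inside the gene's listed 5′ end, and that of the Fcer2a window 3313 bases. The Fcer2a window is 1 of 3 for that gene and the Ccr6 window 1 of 2, and the window with the most matches is shown. Of the 32 genes, 26 matched the promoter table, with 35 windows. The octamer was in 3 of these windows (8.57%), those of Blnk, Ccr6 and Prkcb, against 1.74% of all 32851 windows. The EBF core was in 1 window (2.86%), against 0.904% of all windows. TTCNNNGAA was in 1 window (2.86%), against 8.3% of all windows, and the longer STAT motif was in 2 windows (5.71%), of Fcer2a and Plcg2, against 6.95%. With 35 windows a single window moves these shares by 2.86 percentage points, and a match is a description of letters, not of binding.

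Which of the 32 genes differed between Becn1-M-KO and WT was first asked with all 4 libraries. None passed the edgeR quasi-likelihood test in either direction (0 of 32 higher and 0 of 32 lower), where 1.04% of the 20695 tested genes were called higher and 2.18% lower. The unadjusted edgeR p was under 0.05 for 3 genes, where it was so with a higher level for 10.5% of all tested genes: the PI3 kinase adaptor Pik3ap1, the NF-kB protease Malt1 and the phospholipase Plcg2, all higher in Becn1-M-KO. DESeq2 called 2 genes higher, Malt1 (adjusted p = 0.0294) and Cd38 (adjusted p = 0.0409), where it called 6.4% of all tested genes higher, and limma-voom called 0, where it called 1.21% higher. The median log2 fold change over the 32 genes was 1.40, beside 0.01 over all tested genes, and 31 of the 32 values were positive. Levels within WT spread widely: Cd22 had 498 and 478 CPM in Becn1-M-KO, against 1.45 and 212 CPM in WT replicates 1 and 2. For 29 of the 32 genes (90.6%) both Becn1-M-KO libraries lay above both WT libraries, where this held for 34.3% of all tested genes, and for 0 genes both lay below, where this held for 33.3%. The exceptions were Fcer2a, Cd55 and Gpr183, whose lymphoma libraries lay between the WT libraries. The authors' deposited table of genes with an unadjusted p under 0.05 holds 5511 genes, beside 38087 genes in the count table. It holds 3 of the 32, with log2 fold changes of 1.79 for Malt1, 1.49 for Plcg2 and 0.97 for Pik3ap1. This count does not show the 32 genes to be over-represented there.

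Against WT replicate 2 alone, the WT library with the higher sum of B lineage markers, most of the 32 genes were higher in the lymphomas and a few were lower. The edgeR test called 21 of 32 higher (65.6%) and 2 of 32 lower (6.25%), where 20.9% of the 21844 tested genes were called higher and 22.8% lower. The median log2 fold change was 0.74, beside 0.00 over all tested genes, with values from −2.01 for Fcer2a to 1.64 for Cd38. The 21 genes were Cd38, Syk, Cd22, Ccr6, Malt1, Cd40, Fcrl1, Ms4a1, Fcrla, Plcg2, Blnk, Cd180, Blk, Pik3ap1, Cd72, Lyn, Dapp1, Btk, Swap70, Pik3cd and Bcl10. The lower genes were Fcer2a and Cd55, and the 9 that did not pass were Cd79a, Cd79b, Siglecg, Cd37, Cr2, Gpr183, Ralgps2, Bank1 and Prkcb. This comparison has 1 WT library, so its spread comes from the 2 Becn1-M-KO libraries and the WT library is assumed to vary like them. Tested against a log2 fold change of 1, only Cd38 and Syk stayed higher (6.25% of the genes, where 5.53% of all tested genes did) and only Fcer2a stayed lower (3.12%, where 8.76% did). The share higher by that stricter rule was near the background. Counts by role in the paragraphs below divide the edgeR calls given here, and the same shares over all tested genes are their base.

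**Figure D2:**
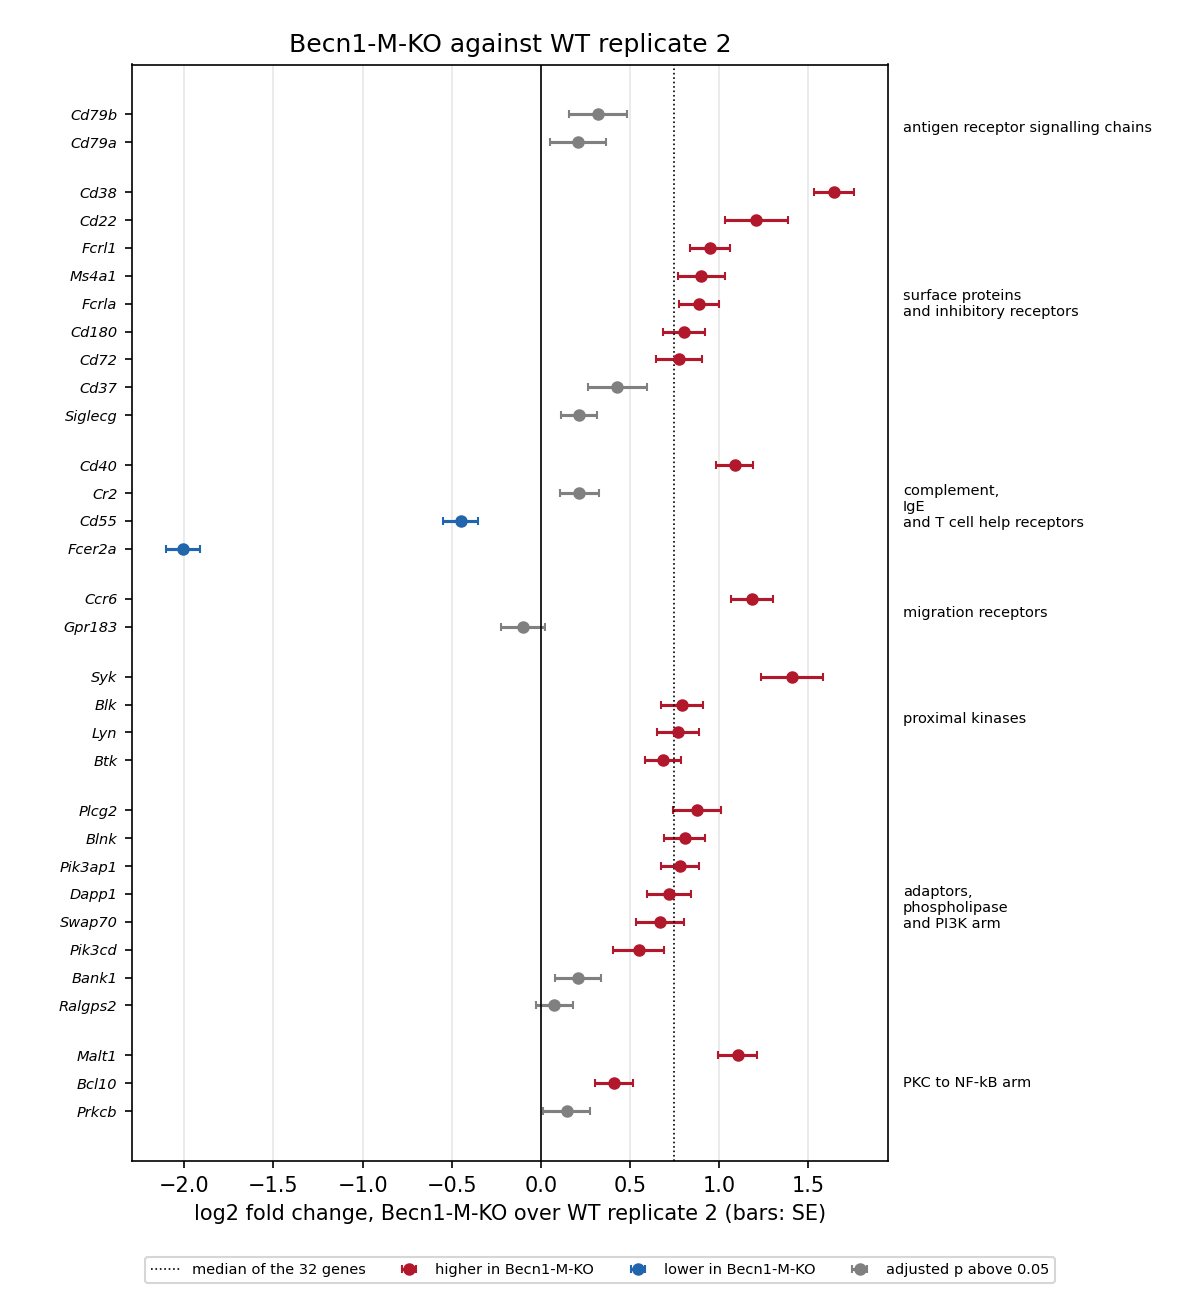
Log2 fold change of each of the 32 genes in Becn1-M-KO over WT replicate 2, grouped by role, with bars of 1 standard error; red points passed the edgeR test as higher, blue points as lower, and grey points did not pass. Values run from −2.01 for Fcer2a to 1.64 for Cd38, and all 4 proximal kinases passed as higher.

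The signalling chains of the receptor itself did not pass the edgeR test. Cd79a, on chromosome 7 from 24897381 to 24902197 in mm10, had 309 and 274 CPM in Becn1-M-KO, against 0.604 CPM in WT replicate 1 and 253 CPM in WT replicate 2. Its log2 fold change over WT replicate 2 was 0.21 (SE 0.16, adjusted p = 0.318). Cd79b had 344 and 312 CPM in Becn1-M-KO, against 2.05 CPM in WT replicate 1 and 264 CPM in WT replicate 2, a log2 fold change over the second of 0.32 (SE 0.16, adjusted p = 0.133). Cd79b was called higher by limma-voom (adjusted p = 0.0345) and by edgeR with library totals (adjusted p = 0.0295), but not by DESeq2 (adjusted p = 0.108), and Cd79a by none of these. With 1 lymphoma library at a time the log2 fold change was 0.12 to 0.30 for Cd79a and 0.25 to 0.39 for Cd79b.

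The 9 genes grouped here as surface proteins and inhibitory receptors had a median log2 fold change over WT replicate 2 of 0.89, from 0.21 to 1.64. Cd38, an ectoenzyme that degrades NAD and is found on B cells and on other leukocytes, lies on chromosome 5 from 43868809 to 43912375. It had 111 and 110.3 CPM in Becn1-M-KO, against 5.56 CPM in WT replicate 1 and 35.5 CPM in WT replicate 2. That is a log2 fold change of 1.64 over WT replicate 2 (SE 0.11, adjusted p = 1.87e-07), or 3.12-fold. Cd22, an inhibitory lectin that binds sialic acid, was 2.31-fold higher than WT replicate 2 (log2 fold change 1.21, SE 0.18, adjusted p = 1.52e-04). Its lymphoma libraries did not overlap the WT libraries. Ms4a1, which encodes the B cell antigen CD20, had 214 and 208 CPM in Becn1-M-KO, against 0.362 CPM in WT replicate 1 and 113 CPM in WT replicate 2 (log2 fold change 0.90, SE 0.13, adjusted p = 1.65e-04). The span of Ms4a1 lies wholly within that of a lincRNA on the opposite strand, AC134839.1, whose reads numbered 4726 and 6011 in Becn1-M-KO libraries and 8 and 2785 in WT libraries. Whether strand was used in counting is not stated, so reads of the pair cannot be told apart. Fcrl1 (0.95), Fcrla (0.89), the toll-like homologue Cd180 (0.80) and the inhibitory receptor Cd72 (0.77) passed with smaller log2 fold changes. The inhibitory lectin Siglecg (0.21, adjusted p = 0.112) and the tetraspanin Cd37 (0.43, adjusted p = 0.0547) did not pass. Cd37 was called higher by DESeq2 (adjusted p = 0.0121), by limma-voom (adjusted p = 0.00609) and by edgeR with library totals (adjusted p = 0.0105), and Siglecg by edgeR with library totals alone among these (adjusted p = 0.0156). Cd72 shares 19.6% of its span with Tesk1 and Cd180 15.5% with Mast4, both on the opposite strand, so their reads are uncertain too.

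Receptors for complement, IgE and T cell help moved in different directions. Cd40, the receptor for T cell help, had 92.8 and 91.8 CPM in Becn1-M-KO, against 1.69 CPM in WT replicate 1 and 43.6 CPM in WT replicate 2. It was higher than WT replicate 2 by 1.09 on the log2 scale (SE 0.10, adjusted p = 4.08e-06). Fcer2a, the low-affinity IgE receptor CD23 of mature follicular B cells, lies on chromosome 8 from 3681737 to 3694174. Fcer2a had 37.6 and 37.7 CPM in Becn1-M-KO, against 0.121 CPM in WT replicate 1 and 152 CPM in WT replicate 2. Its reads were 747 and 978 in the lymphomas, against 1 and 3183 in the WT libraries. The fold change over WT replicate 2 was −2.01 on the log2 scale (SE 0.09, adjusted p = 7.77e-09), 4.02-fold lower in the lymphomas. It was the lowest fold change of the 32, and the lymphoma libraries lay between the WT libraries. Cd55, which restrains complement on the cell surface, had 61.4 and 56.5 CPM in Becn1-M-KO, against 7.37 CPM in WT replicate 1 and 80.8 CPM in WT replicate 2 (log2 fold change −0.45, SE 0.10, adjusted p = 0.00296). The complement receptor Cr2, which is also on follicular dendritic cells, had 97.3 and 104.9 CPM in Becn1-M-KO, against 0.845 CPM in WT replicate 1 and 87.4 CPM in WT replicate 2, and did not pass (adjusted p = 0.133). A second entry spelled CR2 shares 13.6% of its span on the same strand. Follicular dendritic cell markers summed to 2862 and 2472 CPM of the library total in Becn1-M-KO, against 37.7 CPM in WT replicate 1 and 1059 CPM in WT replicate 2, and Madcam1 among them was at 0 reads in WT replicate 1. Their part in the Cr2 and Fcer2a levels was not tested.

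Of the 2 migration receptors, Ccr6 passed as higher than WT replicate 2 and Gpr183 did not pass. Ccr6, a chemokine receptor for CCL20, had 50.8 and 56.1 CPM in Becn1-M-KO, against 0.242 CPM in WT replicate 1 and 23.6 CPM in WT replicate 2, a log2 fold change over the second of 1.18 (SE 0.12, adjusted p = 5.95e-06). Gpr183, which places B cells by oxysterol gradients, had 26.8 and 30.2 CPM in Becn1-M-KO, against 3.38 CPM in WT replicate 1 and 30.7 CPM in WT replicate 2 (log2 fold change −0.10, SE 0.12, adjusted p = 0.553). Its span lies wholly within Ubac2 on the opposite strand, with 3159 and 4232 Ubac2 reads in Becn1-M-KO libraries and 329 and 2575 in WT libraries, so its reads are uncertain.

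All 4 proximal kinases passed as higher than WT replicate 2, with a median log2 fold change of 0.78. Syk, which binds the phosphorylated receptor chains, had 449 and 426 CPM in Becn1-M-KO, against 12.3 CPM in WT replicate 1 and 166 CPM in WT replicate 2 (log2 fold change 1.41, SE 0.17, adjusted p = 3.66e-05). The kinases that act before or beside it differed by less. Blk had 166 and 166 CPM in Becn1-M-KO, against 0.966 CPM in WT replicate 1 and 96.1 CPM in WT replicate 2 (0.79, SE 0.12). Lyn had 157 and 162 CPM in Becn1-M-KO, against 29.1 CPM in WT replicate 1 and 93.8 CPM in WT replicate 2 (0.77, SE 0.12). Btk, which activates PLCG2 and lies on the X chromosome, had 65.0 and 68.2 CPM in Becn1-M-KO, against 1.57 CPM in WT replicate 1 and 41.6 CPM in WT replicate 2 (0.68, SE 0.10). Sex and genotype cannot be told apart for this X-linked gene or for any other gene here.

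Of the 8 adaptors, phospholipase and PI3 kinase genes, 6 passed as higher than WT replicate 2 and 0 as lower, with a median log2 fold change of 0.69. They were Plcg2 (0.88), the adaptor Blnk (0.81), Pik3ap1 (0.78), the phosphoinositide-binding adaptor Dapp1 (0.72), the exchange factor Swap70 (0.67) and the PI3 kinase subunit Pik3cd (0.55). The scaffold Bank1 had 188 and 184 CPM in Becn1-M-KO, against 3.14 CPM in WT replicate 1 and 161 CPM in WT replicate 2, and did not pass (0.21, adjusted p = 0.219). Ralgps2, a Ral exchange factor, had 93.96 and 95.6 CPM in Becn1-M-KO, against 7.37 CPM in WT replicate 1 and 90.4 CPM in WT replicate 2 (0.07, SE 0.10, adjusted p = 0.608). The genes of this arm that passed were higher by 1.46-fold to 1.84-fold.

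In the arm from protein kinase C to NF-kB, 2 of 3 genes passed as higher than WT replicate 2. Malt1, the protease of the complex, had 117 and 121 CPM in Becn1-M-KO, against 26.1 CPM in WT replicate 1 and 55.5 CPM in WT replicate 2 (log2 fold change 1.10, SE 0.11, adjusted p = 6.70e-06). Bcl10, its adaptor, was higher by 0.41 (SE 0.11, adjusted p = 0.00807), which DESeq2 did not call (adjusted p = 0.137). Prkcb, the kinase upstream, had 194 and 199 CPM in Becn1-M-KO, against 29.6 CPM in WT replicate 1 and 178 CPM in WT replicate 2, and did not pass (0.15, adjusted p = 0.412).

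Against WT replicate 1 alone all 32 genes passed as higher in Becn1-M-KO, where 32.3% of the 21327 tested genes were called higher and 32.5% lower. The median log2 fold change was 4.30, with values from 0.93 for Pik3ap1 to 9.14 for Ms4a1. Of the 32 genes, 12 had under 20 reads in this library. For Ms4a1, with 3 reads there, the ratio of scaled levels was 581 (95% counting interval 199 to 2818), for Ccr6, with 2 reads, 223 (61.6 to 1840), and for Fcer2a, with 1 read, 312 (55.9 to 12320). The 17 genes that myeloid cells are also known to express, such as Lyn, Plcg2 and Pik3ap1, stood at a median of 15.6% of their WT replicate 2 level (1.58% to 88.7%). The other 15, such as Ms4a1, Cd79a and Blk, stood at a median of 1.01% (0.0795% to 30.6%). Fcrla, at 30.6%, shares 336 bases with the pseudogene Gm2962 on the same strand, which had 145 reads in WT replicate 1 beside 159 for Fcrla. Fcrla reads there are therefore uncertain. Over WT replicate 2 the median log2 fold change was 0.72 for the 17 genes (13 higher, 1 lower) and 0.77 for the other 15 (8 higher, 1 lower).

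**Figure D3:**
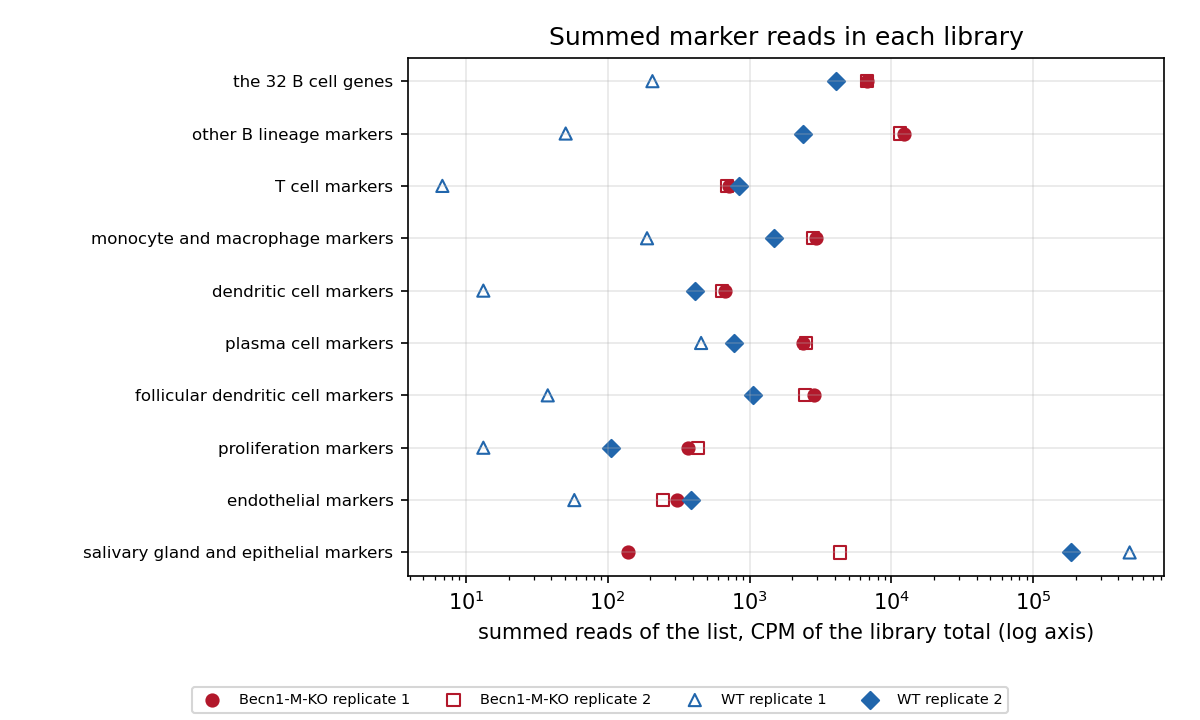
Summed level of the 32 genes and of each marker list in each library, in CPM of the library total on a log axis, with Becn1-M-KO libraries in red and WT libraries in blue. The gland and epithelial list is highest in both WT libraries, and every other sum shown, not only those of B, T and dendritic cells, is lowest in WT replicate 1.

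Other cell type markers also differed between the libraries, and not all in the same direction as the 32 genes. Monocyte and macrophage markers summed to 2931 and 2801 CPM of the library total in Becn1-M-KO, against 189 CPM in WT replicate 1 and 1487 CPM in WT replicate 2. Over WT replicate 2 the median log2 fold change of these 13 markers was 1.77, beside 0.00 over all tested genes. Of the 13 values, 10 were positive and 3 negative, those of Lyz2 (−2.03), Cd163 (−2.23) and Marco (−2.84). Plasma cell markers summed to 2393 and 2494 CPM, against 455 CPM in WT replicate 1 and 773 CPM in WT replicate 2. Their median log2 fold change over WT replicate 2 was 1.66, with 6 values positive and 1 negative. In WT replicate 1 the plasma cell sum was mostly Xbp1 and Derl3, at 624 and 227 CPM of 888 CPM with TMM factors. Igj, Sdc1, Prdm1, Irf4 and Tnfrsf17 had 0.121 to 20.3 CPM there. The log2 fold change over WT replicate 1 was −0.79 for Xbp1 and −2.71 for Derl3. Proliferation markers summed to 370 and 430 CPM, against 13.3 CPM in WT replicate 1 and 105 CPM in WT replicate 2. Their median log2 fold change over WT replicate 2 was 1.58, with all 7 values positive. Endothelial markers summed to 310 and 246 CPM, against 58.1 CPM in WT replicate 1 and 385 CPM in WT replicate 2. Over WT replicate 2 the median log2 fold change was −0.24 for the 11 T cell markers, with 2 values positive and 9 negative. It was −0.35 for the endothelial markers (1 positive, 3 negative) and 0.06 for the dendritic cell markers (5 positive, 3 negative). Single markers were at 0 reads for 2 gland and epithelial markers in Becn1-M-KO replicate 1 and for Madcam1 in WT replicate 1. The part of macrophage RNA in Cd38, Syk, Lyn and the other shared genes was not tested. B lineage markers outside the 32 went both ways: against WT replicate 2, genes called higher included Spib, Pou2af1 and Ighm, while the B cell transcription factors Pax5, Ebf1 and Bach2, and Vpreb3, were called lower.

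The other 40 genes listed for the same pathway, such as phosphatases, PI3 kinase regulators, calcium channels and NF-kB subunits, were read from the same fits. With all 4 libraries edgeR called 0 of 40 in either direction, where it called 1.04% of all tested genes higher and 2.18% lower. DESeq2 called 2 higher, where it called 6.4% of all tested genes higher. The unadjusted edgeR p was under 0.05 for 7, of which Pik3r1 was lower in Becn1-M-KO. It was so with a higher level for 10.5% of all tested genes. The median log2 fold change was 0.90, beside 0.01 over all tested genes. Shares of all tested genes called against each WT library alone are given above. Against WT replicate 2, 22 were higher and 5 lower, 13 did not pass, and the median was 0.52. Against WT replicate 1, 29 were higher and 4 lower, with a median of 1.67. The 3 highest called against WT replicate 2 were the inhibitory Fc receptor Fcgr2b (2.80, with 211 and 231 CPM in Becn1-M-KO, against 9.42 CPM in WT replicate 1 and 31.9 CPM in WT replicate 2), the adaptor Themis2 (2.23) and the adaptor Lat2 (1.27). The 3 lowest called were the PI3 kinase regulatory subunit Pik3r1 (−0.73), the transcription factor Foxo1 (−0.53) and Cd5 (−0.39), a restraining receptor of T cells and some B cells.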

How the data were processed

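Ribosomal RNA was removed from total RNA before Ion Torrent sequencing, per the labels' protocols. Per the file headers, the authors' table holds raw read counts for each gene. A second deposited table of log2 values was not used for tests. The authors' deposited tables of comparisons list, per gene, log2 fold changes with p-values not adjusted. The build mm10 and DESeq2 1.62 are named without a role in the submitters' processing notes; aligner, counter and strand use are not given in the sources used. The listed length of all 38087 genes equals the gene's span, and reads from introns may have been counted. The other 8 columns of per-sample values were not used.

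The 32 genes and all lists were chosen with earlier results of these data known. The main test was the quasi-likelihood test of edgeR 4.0.16 under R 4.3.3 (TMM, filterByExpr with a minimum of 10 reads and 15 in all), on all 4 libraries, against WT replicate 2 alone, and against WT replicate 1 alone. Adjusted p-values are Benjamini-Hochberg over all tested genes with a threshold of 0.05; SE is the log2 fold change over the square root of F. Alternatives used DESeq2 1.42.0 and limma 3.58.1. The test was tried on simulated counts first. Named genes are all 32 members, with values in each library for Cd79a, Cd79b, Ms4a1, Cd22, Blk, Btk, Syk, Lyn, Cr2, Fcer2a and the 6 highest and 6 lowest against WT replicate 2, and, of the other 40, the 3 highest and 3 lowest called. Some planned results are not reported here. B lineage markers named by direction or reads were chosen after their values were seen. A count of 0 allows up to 3 reads, 0.149 to 0.192 CPM of the library total; intervals and floors cover counting error only. Of the 32 genes, 14 overlap another gene. Averaged over genes, the 2 Becn1-M-KO libraries differed beyond sampling noise (mean chi-square of 12.06 per gene). Single genes with large differences, such as Spt1 with 1362 and 67656 reads, weigh heavily in this mean, which need not describe a typical gene. Ighd, Adgre1, Jchain and Mzb1 matched no symbol; Emr1 and Igj stood for Adgre1 and Jchain. Ebf1 matched a gene and a pseudogene row.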

Additional observations from a re-analysis of the deposited data

How the results depend on the processing

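With all 4 libraries, DESeq2 called 2 of the 32 genes and 2 of the other 40 higher, and 1 of the 40 was higher with no count filter. Leaving out each library gave 0 to 32 of the 32 genes higher and 0 to 2 lower, 0 to 29 of the 40 higher and 0 to 5 lower, and medians of 0.74 to 4.30. Without WT replicate 1 the calls were 21 and 2; without WT replicate 2, 32 and 0. Fcer2a (−1.02) turned to 1.81 with limma-voom. Leaving out each library it ran from −2.01 (without WT replicate 1) to 8.19 (without WT replicate 2), Cd55 (0.41) from −0.45 to 2.98 and Gpr183 (0.72) from −0.10 to 3.06 likewise. No number in the labels marks a shared animal, litter or day, and same-numbered libraries had a correlation of deviations of −0.1079. With a replicate block 0 genes were called, the median was 2.24 and Fcer2a was 1.85; with crossed numbers, an alternative chosen after seeing the data, 0 were called and Fcer2a was 1.82.

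Against WT replicate 2, the test against a log2 fold change of 1 left 2 higher and 1 lower of the 32, and 4 higher and 0 lower of the 40. DESeq2 and library totals each left 2 of the 40 lower. The median was 0.87 with library totals, where all tested genes shifted to 0.13, 0.76 with no filter, 0.71 with the stricter filter, and 0.69 to 0.79 leaving out a Becn1-M-KO library, which leaves no test. With library totals the log2 fold changes were 0.55 for Cd37, 0.44 for Cd79b, 0.33 for Bank1, 0.34 for Cr2 and 0.34 for Siglecg, and Gpr183 turned to 0.024. Shares of all tested genes called with library totals are not given, so counts called on that scaling have no base. Against WT replicate 1, the test against 1 and library totals each left 1 of the 40 lower. The median was 5.64 with library totals (all genes 1.39), 4.28 with DESeq2 size factors, 4.33 with immunoglobulin, T cell receptor and gland genes left out, 4.40 with no filter, 4.24 with the stricter filter, and 4.28 to 4.30 leaving out a Becn1-M-KO library. The cause of these shifts was not tested. Reads under 20 in WT replicate 1 limit the values of 12 of the 32 genes against it.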
